A study of Mus musculus with 16 samples.

Results

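The proteasome and its immunoproteasome subunits were followed in B cells and MM of mice that carry spliced XBP-1. The 49 genes were those whose symbol begins with Psma, Psmb, Psmc, Psmd, Psme, Psmf or Psmg and a digit, taken from the 18194 genes that the platform annotation names on the array, with 103 of its 45101 probe sets. Where a gene had several probe sets, as 27 of the 49 did, the one of highest mean over the 16 arrays stands for it. The annotation of the platform gives Psme2, which encodes the beta chain of the activator PA28, only together with a second gene, so that no value for it was taken. The rule did not use any measured difference between the groups.

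At 20 weeks of age, B220+ splenic B cells of 5 nontransgenic mice and of 5 mice with the Eμ-xbp-1s transgene gave RNA for 1 array each. A further 6 arrays held RNA of Eμ-xbp-1s MM, for which the labels give neither an age nor a sort of the tumor cells. The Eμ-xbp-1s mice carry mouse xbp-1s cDNA with an eGFP reporter under an immunoglobulin VH promoter and the Eμ enhancer, which is active in B lineage cells and in some T cells, and a pair of founder lines was used. Every mouse had the C57BL/6 background, and neither the labels nor the paper's text says whether each of the 6 MM samples is a mouse of its own, so that for MM a p-value covers a spread that could be technical. Values are intensities on a linear scale, where 1 array stands for 1 sample.

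The proteasome is the protease that degrades ubiquitin-tagged proteins. Its 20S core is a stack of alpha and beta rings, in which Psmb5, Psmb6 and Psmb7 carry the proteolytic sites, and a 19S particle of ATPases and other subunits binds, unfolds and feeds in the substrate. In lymphoid cells, and in other cells under interferon-γ, the inducible subunits Psmb8 (LMP7), Psmb9 (LMP2) and Psmb10 (MECL-1) take the places of Psmb5, Psmb6 and Psmb7 and favour peptides that MHC class I binds. The PA28 cap of Psme1 and Psme2 is induced with them. Psmb8, Psmb9, Psmb10 and Psme1 are called the inducible genes here. Plasma cells and myeloma cells make large amounts of immunoglobulin, and the proteasome, mainly at Psmb5 and Psmb8, is the target of bortezomib in MM.

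The stretches of sequence near the starts of the genes that carry the main pattern are printed first, from RefSeq on GRCm38.p6. Promoters, taken as 250 bases before to 50 bases after a start, were given for 41 of the 49 genes (44 promoters). Psmb9 and Tap1, a peptide transporter of class I presentation, lie head to head, and the 225 bases between their starts at chr17:34187331-34187555, plus strand, are shown because both genes were low on MM replicates 4, 5 and 6. Capitals mark a GC box, GGGCGG on either strand, which is in 35.7% of all 32851 promoters.
Psmb9 and Tap1: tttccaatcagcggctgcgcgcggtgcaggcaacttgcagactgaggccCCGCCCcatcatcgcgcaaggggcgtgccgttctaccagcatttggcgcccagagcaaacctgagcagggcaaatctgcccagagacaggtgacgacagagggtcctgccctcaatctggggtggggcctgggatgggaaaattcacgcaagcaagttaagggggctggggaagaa
Psmb8 lies in the same cluster on chromosome 17. Its upstream stretch at chr17:34198065-34198144, plus strand, holds a match to the interferon-γ activated site (TTCNNNGAA, both strands, in 8.30% of all promoters), in capitals.
Psmb8: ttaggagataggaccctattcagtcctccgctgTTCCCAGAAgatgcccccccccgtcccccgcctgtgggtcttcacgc
The first 30 bases of Psme1, chr14:55578494-55578523, plus strand, hold a match in capitals to the site of interferon regulatory factors (GAAANNGAA, both strands, in 8.56% of all promoters).
Psme1: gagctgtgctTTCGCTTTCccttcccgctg
The constitutive counterparts are Psmb5, with the bases just before its start (chr14:54617996-54618075, minus strand), and Psmb6 (chr11:70525327-70525356, plus strand). The stretch of Psmb6 ends just before the start that the promoter table uses and lies inside the gene as annotated, from 70525324. Capitals mark the core of the antioxidant response element (TGACNNNGC, both strands, in 12.4% of all promoters), the site of the NRF1 and NRF2 proteins.
Psmb5: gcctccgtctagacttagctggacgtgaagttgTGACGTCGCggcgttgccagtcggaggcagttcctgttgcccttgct
Psmb6: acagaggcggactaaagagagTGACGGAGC
Of the 44 promoters, 6 held the antioxidant core, 7 the interferon regulatory factor site and 3 the interferon-γ activated site. Among the 7, Psme1 was the only inducible gene, beside Psmb3, Psmb4, Psmc2, Psmd4, Psmd9 and Psmg4. Among the 3, Psmb8 was the only one, beside Psmd2 and Psmg1. The GC box was in 23 of the 44 (52.3%), and of the inducible genes only Psmb9 and Psme1 held it. These motifs thus do not separate the inducible genes from the other members. The core of the unfolded protein response element (TGACGTGG), which XBP-1 binds, was in none of the 44 and in 0.676% of all promoters, and the ER stress response element was in none of the 44 and in 0.119% of all. These are matches of letters in a window and not sites of binding.

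Several arrays stood apart before any result was read. Xbp1 itself ran from 1802 to 2452 (median 2015) in nontransgenic B cells, from 2040 to 3108 (median 2664) with the transgene and from 1477 to 4979 (median 2144) in MM. The ratio of 3′ to 5′ signal of the actin control, a sign of RNA integrity, was 2.76 and 2.54 on Eμ-xbp-1s B cell replicates 3 and 4. It ran from 1.12 to 1.26 on the other 8 B cell arrays and from 1.07 to 1.59 on the MM arrays. The ratio of the Gapdh control was 2.413 and 1.969 on Eμ-xbp-1s replicates 3 and 4 and 0.867 to 1.060 on the other 8. On MM replicates 1 to 3 the Gapdh ratio was 0.931, 0.970 and 1.033. It was higher on MM replicates 4 to 6, at 1.276, 1.499 and 1.395. The summed intensity of 9 T cell markers was 5476 to 6829 in Eμ-xbp-1s against 782 to 885 in nontransgenic B cells, with 8 of the 9 genes higher. In MM it was 726 to 4364. Of 10 neutrophil markers, 9 were tested between the B cell groups and 7 were called higher with the transgene. The sum of the 10 was 10076 to 32797 in Eμ-xbp-1s against 796 to 1555 in nontransgenic B cells. It reached 78485 and 54267 on MM replicates 4 and 5 and 1162 to 2591 on the other MM arrays. Markers of mature B cells summed to 41378 to 44896 in nontransgenic B cells, 19258 to 35510 in Eμ-xbp-1s B cells and 1635 to 23082 in MM. Against nontransgenic B cells limma called 4 of the 9 lower in MM, Fcer2a, Cr2, Pax5 and Blk, where it called 9.59% of all probe sets. All 9 were lower at an unadjusted p under 0.05, which 35.3% of all probe sets passed. Of 6 tested plasma cell markers limma called 1 in MM against nontransgenic B cells. That was Irf4, which was lower, at 53.5 to 307 against 791 to 1032. Prdm1 went the other way, at 201, 230, 213, 280, 113 and 105 on MM replicates 1 to 6 against 111 to 136. Its log2 fold change was 0.54 (adjusted p = 0.144 from limma). Mzb1 and Jchain ran from 283 to 3713 and from 1620 to 7843 in MM, beside 2818 to 3536 and 4564 to 6065 in nontransgenic B cells. Sdc1 (CD138) and Tnfrsf17 (BCMA) ran from 110 to 264 and from 32.1 to 92.9 in MM, beside 141 to 246 and 38.8 to 63.9 in nontransgenic B cells. Stroma genes summed to 4916 to 12185 in MM and to 327 to 473 in Eμ-xbp-1s B cells. In that comparison limma called 6 of 7 higher in MM, where it called 3.19% of all probe sets. The sum of 7 erythroid markers was 26142 and 35389 on MM replicates 4 and 5 and 380 to 892 on the other MM arrays, 11394 on Eμ-xbp-1s replicate 3 and 1401 to 3743 on the other Eμ-xbp-1s arrays, and 314 to 713 in nontransgenic B cells. Macrophage markers summed to 9424 to 39941 in MM, 7090 to 14052 in Eμ-xbp-1s and 3169 to 5145 in nontransgenic B cells, and NK cell markers to 1459 to 6844, 4698 to 6654 and 1274 to 1781. Genes of mitosis summed to 3489 to 19667 in MM, lowest on replicate 6 and highest on replicate 5, and to 1117 to 3020 on the B cell arrays. In bulk RNA, fewer cells of a type and less RNA per cell cannot be told apart, and the part of these cells and of RNA integrity in the results below was not tested.

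Eμ-xbp-1s and nontransgenic B cells were compared to ask whether the transgene went with a change in proteasome genes before any tumor. Limma was run on log2 intensities with a floor of 50, for probe sets that exceeded 100 on over 20% of the arrays of a comparison. It called 0 of 47 tested members at an adjusted p under 0.01, where 3.23% of all probe sets were called. Of 29 further probe sets of the members that were tested, 1 passed, a second probe set of Psmb3, a noncatalytic subunit of the beta ring. It read 334 to 409 in nontransgenic and 508 to 868 in Eμ-xbp-1s B cells, with a log2 fold change of 0.85 (adjusted p = 0.0094 from limma), and was highest on Eμ-xbp-1s replicates 3 and 4. The brighter probe set of Psmb3 was at 0.00, so the 2 probe sets of this gene disagreed. Psma8, a testis form of an alpha subunit, and Psmb11, the catalytic subunit of thymic epithelium, were not tested. Psma8 was above 50 on a single array, MM replicate 4 at 54.6, and Psmb11 stayed between 4.21 and 37.1 on all 16. By the probe set that stands for each gene, a single member was higher and none lower at an unadjusted p under 0.05, against 20.1% of all probe sets. No member had groups that did not overlap (8.97% of all probe sets). That member was Psmc2, an ATPase of the 19S base, with a log2 fold change of 0.33 (95% interval 0.02 to 0.65, adjusted p = 0.22 from limma). Its 5 nontransgenic arrays read 671, 698, 719, 829 and 626, and its Eμ-xbp-1s arrays 895, 766, 1061, 1048 and 730. The highest pair came from replicates 3 and 4, the arrays with the raised 3′ to 5′ ratio. Further tested probe sets of Psmc2 had log2 fold changes of 0.01 and 0.37 (unadjusted p = 0.95 and 0.226 from limma). At the same unadjusted threshold, further probe sets of Psma1, Psma6, Psmb3, Psmb4, Psmc4 and Psmd6 were higher with the transgene and none was lower. Their log2 fold changes were 0.32 to 0.85, beside -0.18 to 0.03 for the probe sets that stand for these genes. The median log2 fold change over the 47 members was -0.04, beside -0.05 over all 20596 probe sets tested, and 16 of the 47 were above 0.

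Several members differed between arrays of the Eμ-xbp-1s group. The median SD of the log2 intensity over these arrays was 0.36 for the 43 members other than the inducible genes, beside 0.32 over all probe sets. Psmb5, the chymotrypsin-like catalytic subunit, read 1360, 1219, 659, 688 and 665 on replicates 1 to 5 in Eμ-xbp-1s B cells and 945, 1058, 748, 967 and 779 in nontransgenic B cells. Psmb8, which takes its place in the immunoproteasome, read 2062, 1829, 770, 847 and 578 in Eμ-xbp-1s and 1470, 1831, 972, 1340 and 964 in nontransgenic B cells. Both genes were highest on Eμ-xbp-1s replicates 1 and 2, and the groups overlapped. Of the 47 tested members, 40 (85.1%) had their highest Eμ-xbp-1s value on replicate 1, as did 40.1% of all probe sets tested. The log2 fold change was -0.03 for Psmb5 (95% interval -0.53 to 0.46) and -0.25 for Psmb8 (-1.003 to 0.50), so that sizeable differences in either direction stay within both intervals. Without replicates 3 and 4 the median over the 43 members other than Psmb8, Psmb9, Psmb10 and Psme1 went from -0.03 to 0.10, with 39 of 43 above 0, and no member passed. The assembly chaperone Psmg2 had the lowest log2 fold change, -0.49, with 352, 314, 56.2, 112 and 194 on the 5 Eμ-xbp-1s arrays against 202 to 311 in nontransgenic B cells, and its 2 lowest values came from replicates 3 and 4.

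**Figure D1:**
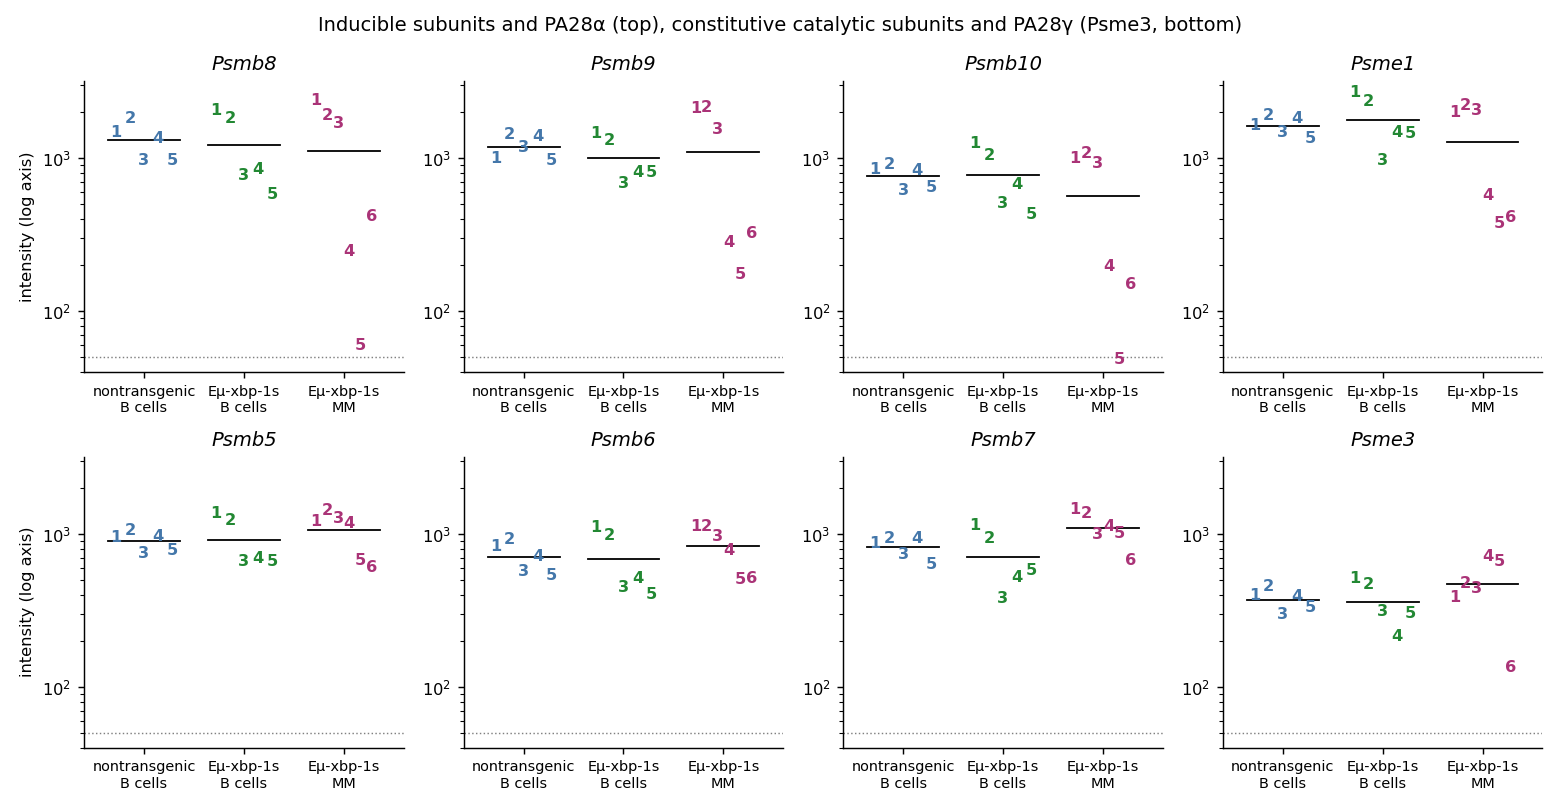
Intensity (log axis) of Psmb8, Psmb9, Psmb10 and Psme1 (top) and of Psmb5, Psmb6, Psmb7 and Psme3 (bottom) in nontransgenic B cells, Eμ-xbp-1s B cells and Eμ-xbp-1s MM. Digits stand for arrays by replicate number, bars for group means and the dotted line for a floor of 50. In the top row MM replicates 4, 5 and 6 lie at 48.5 to 574 and the other MM arrays at 929 to 2399.

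The inducible subunits split the MM arrays. Psmb8 read 2399, 1895 and 1689 on MM replicates 1, 2 and 3 and 247, 59.6 and 413 on replicates 4, 5 and 6, against 964 to 1831 in nontransgenic and 578 to 2062 in Eμ-xbp-1s B cells. Psmb9 read 2109, 2153 and 1537 and then 280, 175 and 321, against 968 to 1422 and 684 to 1458. Psmb10 read 998, 1067 and 929 and then 195, 48.5 and 149, against 613 to 905 and 429 to 1254. Psme1, the alpha chain of PA28, read 1989, 2224 and 2061 and then 574, 372 and 409, against 1338 to 1901 and 971 to 2698. For all 4 genes MM replicates 4, 5 and 6 were below every one of the 10 B cell arrays, and replicates 1, 2 and 3 were above the highest nontransgenic array. The exception was Psmb8 on replicate 3, at 1689 against 1831. MM therefore overlapped both B cell groups on every one of the 4 genes.

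No inducible gene passed the test between groups. Against nontransgenic B cells the log2 fold change from limma was -1.09 for Psmb8 (95% interval -2.89 to 0.71, adjusted p = 0.377), -0.76 for Psmb9 (-2.17 to 0.65, 0.433), -1.18 for Psmb10 (-2.75 to 0.39, 0.27) and -0.75 for Psme1 (-1.83 to 0.33, 0.308). Against Eμ-xbp-1s B cells the values ran from -1.10 for Psmb10 to -0.48 for Psmb9, with adjusted p from 0.366 to 0.681. The intervals are wide, and a mean describes neither set of MM arrays. Without MM replicates 4 and 5, the arrays with the high neutrophil and erythroid markers, Psmb8 and Psmb9 stood at 0.065 and 0.060 against nontransgenic B cells. Psmb10 and Psme1 stayed below 0 in that fit, and the median of the 4 genes was -0.08. Psmb8 had a second tested probe set against nontransgenic B cells, at 2.86 to 29.1 on MM replicates 4, 5 and 6 and at 85.9 to 110 on the others, with a log2 fold change of 0.00 after the floor. The remaining 3 genes have 1 probe set each.

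**Figure D2:**
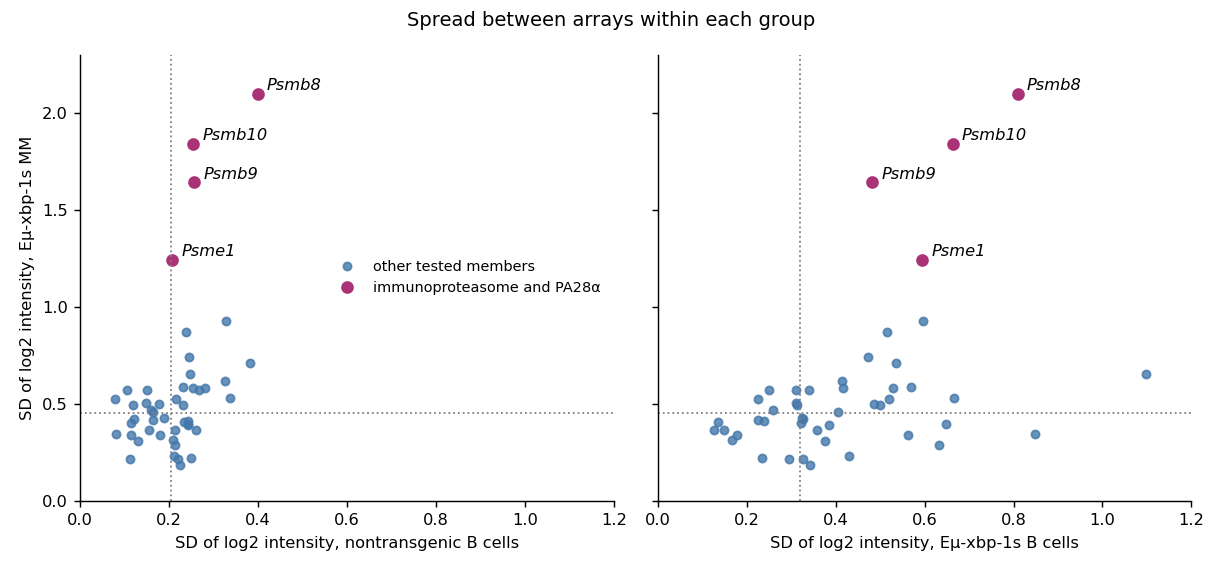
Standard deviation (SD) of the log2 intensity between the arrays of a group, for MM (vertical axis) against nontransgenic (left) and Eμ-xbp-1s B cells (right). Each point is 1 of the 47 tested members and dotted lines are medians over all probe sets tested. Psmb8, Psmb9, Psmb10 and Psme1 lie between 1.24 and 2.10 in MM, above the other 43 members at 0.18 to 0.93.

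The size of this spread was found in few other probe sets. The SD of the log2 intensity over the 6 MM arrays was 2.10 for Psmb8, 1.84 for Psmb10, 1.64 for Psmb9 and 1.24 for Psme1. Of the 21894 probe sets tested, 0.402%, 0.827%, 1.42% and 3.87% had an SD at least as high, and the median was 0.45. The other 43 members ran from 0.18 to 0.93 with a median of 0.42. Among nontransgenic B cells the same 4 genes had SDs of 0.21 to 0.40, beside a median of 0.20 over all probe sets, and among Eμ-xbp-1s B cells 0.48 to 0.81, beside 0.32.

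The constitutive catalytic subunits varied less between the MM arrays. Psmb5 read 1215, 1428, 1261, 1165, 671 and 601 on MM replicates 1 to 6, Psmb6 1123, 1124, 962, 784, 505 and 514, and Psmb7 1455, 1363, 992, 1111, 1003 and 672. Psmb5 and Psmb6 were also lowest on replicates 4, 5 and 6, with a smaller gap than the inducible genes, and Psmb7 was not. On MM replicate 4, where Psmb8 read 247, Psmb5 read 1165 and Psmb7 1111, both above every nontransgenic array. The log2 fold changes against nontransgenic B cells were 0.17 for Psmb5 (95% interval -0.35 to 0.70), 0.19 for Psmb6 (-0.37 to 0.75) and 0.40 for Psmb7 (-0.04 to 0.85). None passed limma's test (adjusted p = 0.185 to 0.647).

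The exchange of the catalytic subunits was measured on each array as log2 of the inducible minus log2 of the constitutive subunit, a quantity that compares arrays and does not give the relative amounts of the proteins. Psmb8 minus Psmb5 was 0.64, 0.79, 0.38, 0.47 and 0.31 in nontransgenic B cells, 0.60, 0.59, 0.23, 0.30 and -0.20 in Eμ-xbp-1s B cells, and 0.98, 0.41 and 0.42 on MM replicates 1 to 3. On MM replicates 4, 5 and 6 it was -2.24, -3.49 and -0.54, the lowest values of the 16. Psmb9 minus Psmb6 ran from 0.26 to 1.06 and from 0.41 to 0.99 in the B cell groups, and was 0.91, 0.94 and 0.68 and then -1.49, -1.53 and -0.68 in MM. Psmb10 minus Psmb7 ran from -0.25 to 0.03 and from -0.42 to 0.43, and was -0.54, -0.35 and -0.09 and then -2.51, -4.33 and -2.17 in MM, where Psmb10 on replicate 5 stood at the floor.

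**Figure D3:**
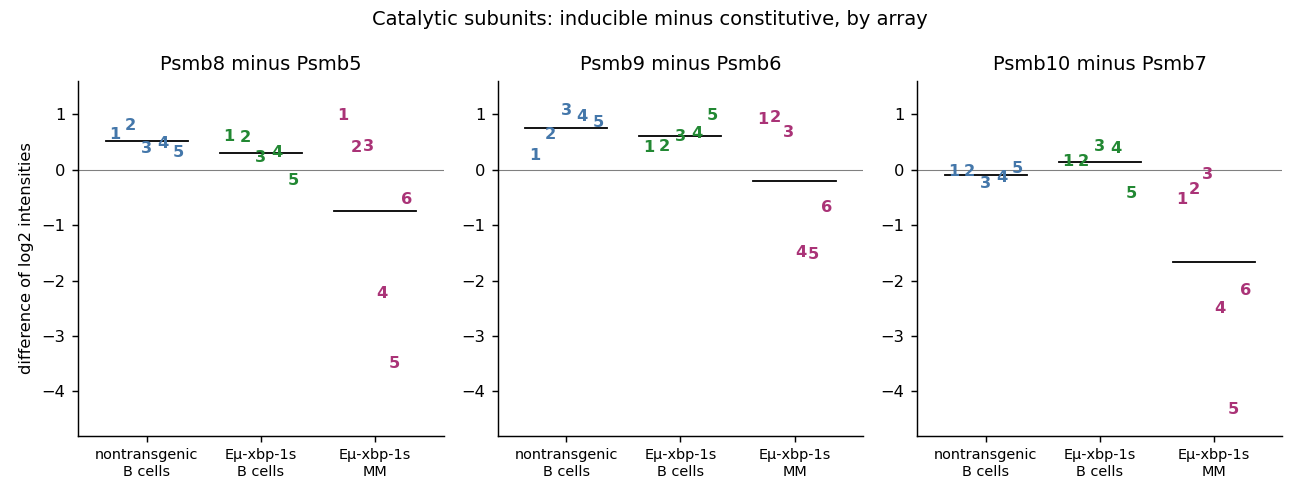
Log2 intensity of Psmb8, Psmb9 and Psmb10 minus that of Psmb5, Psmb6 and Psmb7 in the 3 groups. Digits stand for arrays by replicate number and bars for group means. MM replicates 4, 5 and 6 lie at -4.33 to -0.54, below every other array of the same pair.

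In a two-sided exact permutation test over samples none of 9 comparisons passed at an adjusted p under 0.05. Against nontransgenic B cells the mean difference in MM was lower by 1.26 for Psmb8 and Psmb5, with p = 0.18 in the exact test, by 0.95 for Psmb9 and Psmb6 (p = 0.139) and by 1.58 for Psmb10 and Psmb7 (p = 0.0628). The lowest p of the 9, 0.0346 in the exact test, was that of Psmb10 and Psmb7 in MM against Eμ-xbp-1s B cells, a difference of -1.81 between means of 0.14 ± 0.34 (SD, n = 5) and -1.67 ± 1.64 (SD, n = 6), with an adjusted p of 0.274. Between the B cell groups the differences were -0.21, -0.14 and 0.23 (exact p = 0.254, 0.429 and 0.183). The labels give no pairing of the B cell arrays. With arrays of equal number taken as pairs, Psmb8 minus Psmb5 was lower with the transgene in all 5 pairs (exact sign-flip p = 0.0625, the smallest that 5 pairs can give, adjusted p = 0.281). The other pairs of subunits had p = 0.312 each in the exact sign-flip test. The smallest p the test can give is 0.00216 with 5 against 6 arrays and 0.00794 with 5 against 5.

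The log2 fold changes of most other members lay slightly above 0 in MM, and no single gene passed. Limma called 0 of 47 members in MM against nontransgenic B cells, where 9.59% of all probe sets were called, and 0 of 47 in MM against Eμ-xbp-1s B cells, where 3.19% were. At an unadjusted p under 0.05 there were 7 members (35.3% of all probe sets) and 6 members (26.7% of all probe sets), all of them higher in MM. Against nontransgenic B cells a further probe set of Psma1 was lower, at -0.49 (adjusted p = 0.0187 from limma). A further probe set of Psmc6 was higher there, at 0.47 (adjusted p = 0.089 from limma). Groups that did not overlap were seen for no member against nontransgenic B cells (16.1% of all probe sets) and for 1, Psmc3ip, against Eμ-xbp-1s B cells (8.19%). These shares of the members, 14.9% and 12.8% at an unadjusted p, lie below those of all probe sets. Apart from the 4 inducible genes, 38 of 43 members had a log2 fold change above 0 against nontransgenic B cells, with a median of 0.19, beside -0.03 over all probe sets tested, and 39 of 43 against Eμ-xbp-1s B cells, with a median of 0.27, beside 0.00. Against nontransgenic B cells, scaling the arrays to 1 median moved the median of all probe sets by -0.10 and gave 31 of 43 above 0, with a median of 0.09, and quantile normalization moved it by 0.02 and gave 39 of 43, with a median of 0.29. Counted from the median of all probe sets, 39 of the 47 members were higher in MM under each of the 3 scalings. Against Eμ-xbp-1s B cells without replicates 3 and 4, the median of the 43 was 0.08.

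**Figure D4:**
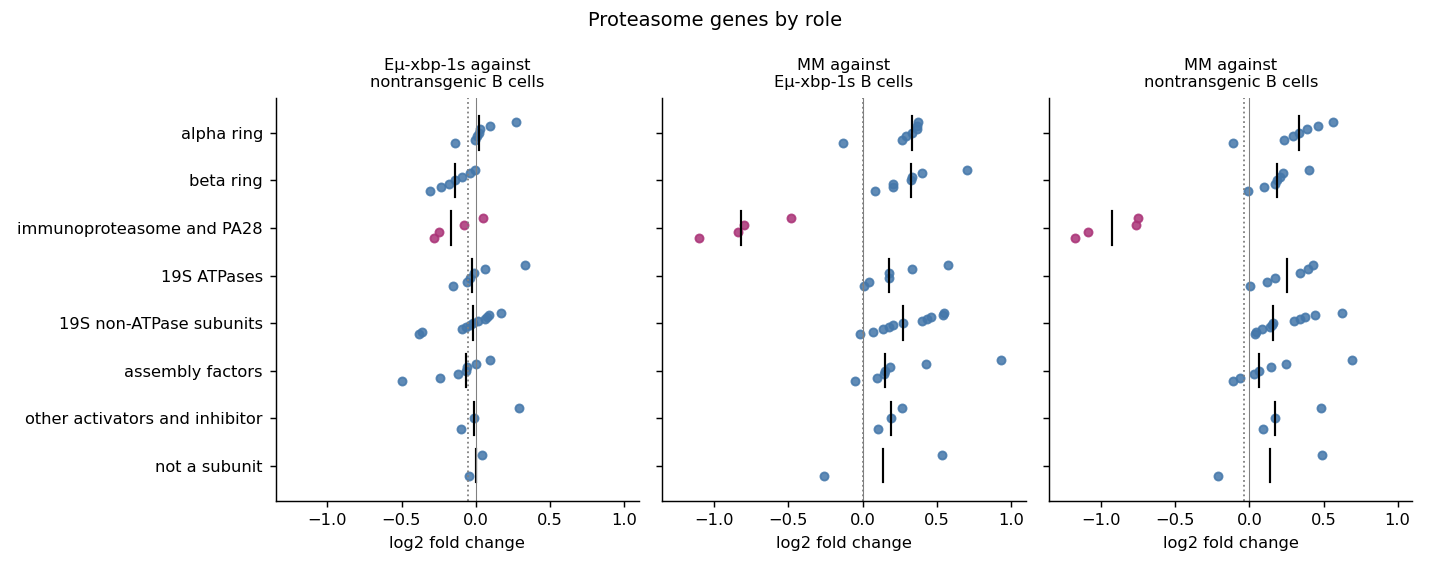
Log2 fold change of the 47 tested members by role, in 3 comparisons. Each point is 1 gene, the black bar is the median of a role and the dotted line is the median over all probe sets tested. The 4 inducible genes lie between -1.18 and -0.48 in both comparisons of MM, and the median of every other role lies between 0.06 and 0.34.

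Psmd1, the large scaffold subunit of the 19S base, had the lowest adjusted p of a subunit in MM against nontransgenic B cells. Its intensity was 417, 443, 536, 600 and 466 in nontransgenic B cells, 576, 536, 463, 526 and 478 in Eμ-xbp-1s B cells and between 472 and 965 in MM (median 807). A single MM array, replicate 6 at 472, lay within the range of the B cells. The log2 fold change was 0.63 (95% interval 0.21 to 1.04) with an adjusted p of 0.0362 from limma against nontransgenic B cells and 0.55 (0.13 to 0.97, adjusted p = 0.089) against Eμ-xbp-1s B cells. Psmc3ip, which shares the symbol's stem and encodes a protein of meiotic recombination rather than a subunit, had an adjusted p of 0.0352 against nontransgenic B cells, at 111 to 146 in MM and 79.4 to 117 in nontransgenic B cells. Both genes passed an adjusted p under 0.05, which 21.2% of all probe sets did in this comparison.

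Psmd9, a chaperone of 19S assembly, had the largest log2 fold change of the members in both comparisons of MM, 0.69 against nontransgenic (adjusted p = 0.0798) and 0.93 against Eμ-xbp-1s B cells (0.0606). It read 206, 215, 211, 220, 285 and 88.3 on the 6 MM arrays, against 93.9 to 146 and 70.9 to 140. Only MM replicate 6 fell within the range of the B cells. Without replicate 6, Psmd9 passed against both B cell groups and Psmd1 against nontransgenic B cells. The other assembly factors, which help to build the rings and the base, had log2 fold changes of -0.11 (Psmd5) to 0.25 (Psmg1) against nontransgenic B cells.

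Among the 7 tested alpha subunits, which form the gate of the core, the median log2 fold change against nontransgenic B cells was 0.33, and 6 were above 0. Psma7 had the highest, 0.56 (95% interval -0.01 to 1.13), with 983, 1032, 992, 549, 455 and 471 on the MM arrays and 362 to 584 in nontransgenic B cells. Its MM values fell into a set above every B cell array (429 to 762 in Eμ-xbp-1s B cells) and a set within their range, on the same replicates as the inducible genes. Psma4 was split in the same way, at 1574, 1615 and 1539 and then 672, 544 and 669, against 675 to 996 in nontransgenic B cells. So was Psma2, at 1824, 1794 and 1768 and then 1131, 1076 and 1216, where the highest B cell array read 1518. The beta subunit Psmb4 was too, at 2281, 2024 and 1786 and then 1302.5, 1046 and 817, with 1719 as highest B cell value. Replicates 4 to 6 also lay below replicates 1 to 3 for Psma1, Psma3, Psma5, Psmb1, Psmb2 and Psmb3. That order did not hold for Psma6 and Psmb7. Outside the rings it held for Psmc4, Psmd2 and Psmg1, among others, and not for Psmc2, Psmd1 or Psmd9. Psma5 and Psma6 had log2 fold changes of 0.46 and 0.39 (unadjusted p = 0.0401 and 0.0392, adjusted p = 0.123 and 0.121 from limma). Psma3 was the one alpha subunit below 0, at -0.11.

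The 6 ATPases of the 19S base, which unfold the substrate, had log2 fold changes of 0.00 (Psmc4) to 0.43 (Psmc1) against nontransgenic B cells and of 0.01 (Psmc2) to 0.58 (Psmc1) against Eμ-xbp-1s B cells. Psmc1 read 461, 549, 600, 410, 386 and 224 in MM and 283 to 357 in nontransgenic B cells, again with replicate 6 lowest. The 11 other 19S subunits, which hold ubiquitin receptors and the deubiquitinase Psmd14, had a median of 0.16 and all were above 0. Psmd6 had 0.45 (unadjusted p = 0.0173, adjusted p = 0.0697 from limma), at 656 to 996 in MM and 521 to 826 in nontransgenic B cells. The 3 further regulators were Psme3 (PA28γ, a nuclear cap), Psme4 (PA200) and Psmf1, the inhibitor PI31. They had log2 fold changes of 0.17, 0.09 and 0.48, all with intervals that include 0. Psmf1 read 250, 219, 204, 265, 501 and 136 in MM, with replicate 5 highest, against 124 to 223 in nontransgenic B cells.

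The members with the lowest log2 fold change of their role in MM against nontransgenic B cells follow. Psma3 ran from 966 to 2005 in MM (median 1527), Psmb2 from 451 to 967 (median 817), Psmc4 from 233 to 585 (median 475) and Psmd8, a 19S lid subunit, from 335 to 635 (median 590). In nontransgenic B cells the same genes had medians of 1638, 736, 430 and 521. The chaperone Psmd5 had a median of 452 in MM and 466 in nontransgenic B cells, and Psme3ip1, which encodes a partner of PA28γ and no subunit, 290 and 340, with log2 fold changes of -0.11 and -0.21. Between the B cell groups Psmd7, the partner of Psmd14 in the lid, was lowest of the non-ATPase 19S subunits, at -0.38 (95% interval -0.95 to 0.18), with medians of 125 in Eμ-xbp-1s and 195 in nontransgenic B cells, and Psmd11 was highest, at 0.17, with medians of 1351 and 1146. None of these intervals excludes 0.

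MM replicate 6 was the lowest MM array for 30 of the 43 members outside the inducible set (69.8%) and for 33.0% of all probe sets tested. Psme3 read 134 on it and 383 to 715 on the other MM arrays, and Psmd2, a scaffold of the 19S base, read 202 against 588 to 1109. Limma with array weights, which gave MM replicates 4, 5 and 6 weights of 0.15 to 0.27 against nontransgenic B cells, called 15 of 47 members there, all higher in MM, where it called 25.3% of all probe sets. Against Eμ-xbp-1s B cells it called 4 of 47, all higher, where it called 20.4% of all probe sets. Under these weights the 4 inducible genes turned to log2 fold changes of 0.16 to 0.47 against nontransgenic B cells. The MM arrays of low weight are those on which these genes are low.

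For 10 of 12 measured genes of class I presentation, values on MM replicates 4, 5 and 6 lay below those on replicates 1, 2 and 3. This split of the arrays was read off the inducible genes, and its share over all probe sets was not computed. No link of the class I genes to the inducible genes is therefore drawn from the count. Tap1, which shares the printed stretch with Psmb9, read 1843, 2088 and 1885 on MM replicates 1 to 3 and 194, 134 and 171 on replicates 4 to 6, against 857 to 1332 in nontransgenic and 691 to 1572 in Eμ-xbp-1s B cells. Nlrc5, the transactivator of class I genes, read 1010, 968 and 827 and then 193, 130 and 160, and Irf1, an interferon regulatory factor, 2443, 2787 and 2387 and then 735, 386 and 681. The exceptions were B2m and Calr. The light chain B2m varied less, from 4714 to 7893 in MM against 5388 to 6767 in nontransgenic B cells, with 7125 on replicate 4 and 7066 on replicate 3. Calr, a chaperone of the ER, was highest on replicate 4, at 4236, against 2891 to 3461 on replicates 1 to 3. The class I heavy chains H2-K1 and H2-D1 read 6527 and 5965 on replicate 4, within and above the nontransgenic ranges of 5711 to 7097 and 5113 to 5772. Of 12 measured genes of the list limma called 0 in each comparison, where it called 3.19% to 9.59% of all probe sets. At an unadjusted p under 0.05, 3 were lower between the B cell groups, where 20.1% of all probe sets passed. None passed in MM, where 35.3% of all probe sets did against nontransgenic and 26.7% against Eμ-xbp-1s B cells. The median log2 fold change was -0.41 in MM against nontransgenic B cells.

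**Figure D5:**
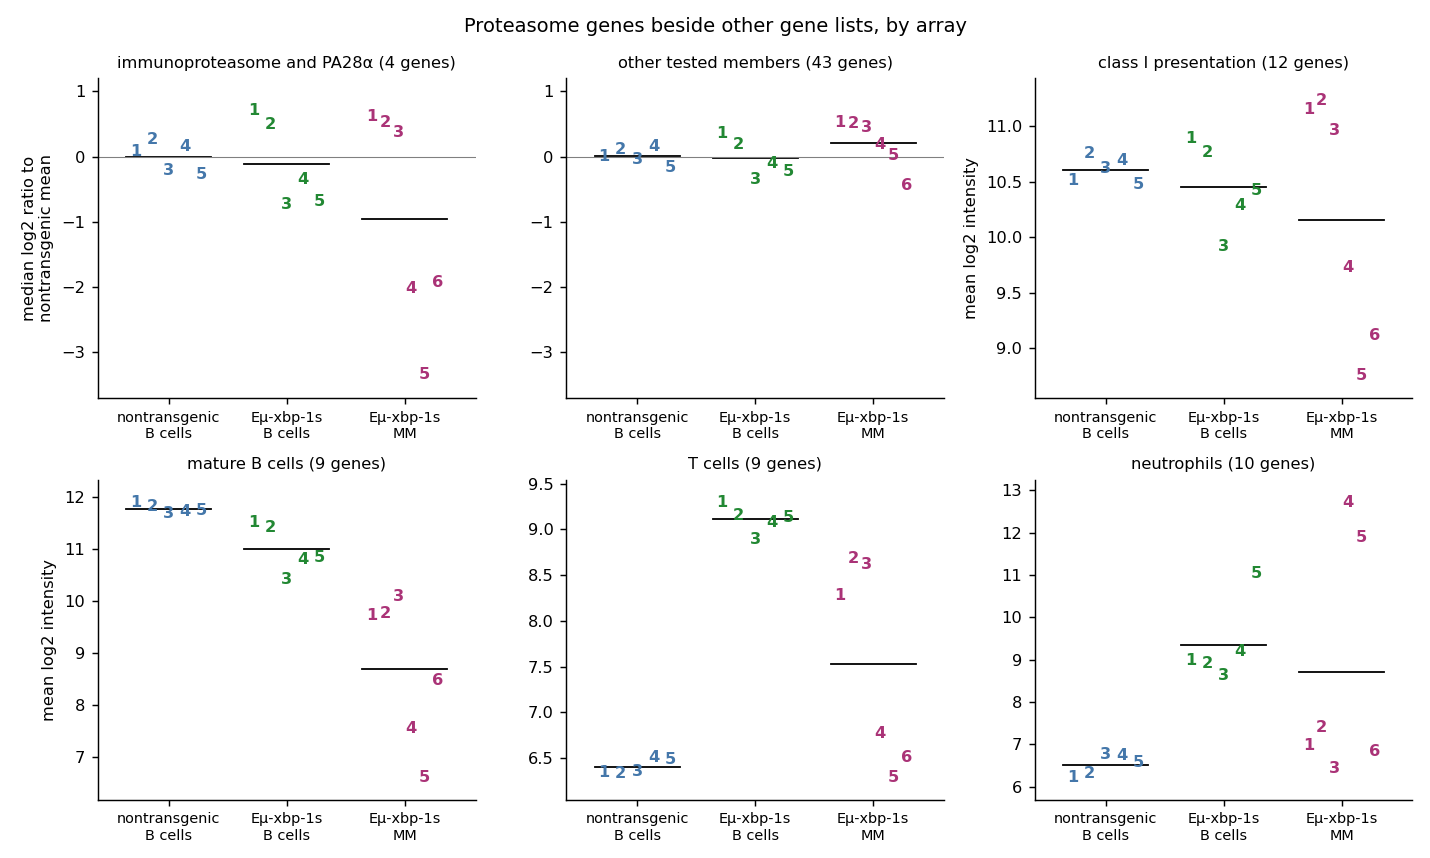
Median log2 ratio to the nontransgenic mean over the 4 inducible genes and over the other 43 tested members, and mean log2 intensity of the gene lists of class I presentation, mature B cells, T cells and neutrophils. Digits stand for arrays by replicate number and bars for group means. MM replicates 4, 5 and 6 are the lowest MM arrays for the inducible genes, class I presentation, mature B cells and T cells, while neutrophil genes are high on replicates 4 and 5 only.

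Read per array, the 4 inducible genes had a median log2 ratio to the nontransgenic mean of 0.62, 0.53 and 0.37 on MM replicates 1 to 3 and of -2.02, -3.34 and -1.93 on replicates 4 to 6, while the other 43 members had 0.53, 0.51 and 0.45 and then 0.19, 0.02 and -0.43. The mean log2 intensity of 9 markers of mature B cells was 9.73, 9.77 and 10.10 and then 7.55, 6.61 and 8.49, and that of 9 T cell markers 8.28, 8.69 and 8.62 and then 6.77, 6.29 and 6.51. The arrays low for the inducible genes were also those with the lowest mean of either list. This split was read off the inducible genes, and its share over all probe sets was not computed, so no link is drawn from it. The same order held for NK cells (8.77, 8.86 and 8.42 and then 7.86, 7.43 and 7.61) and stroma (10.25, 10.39 and 9.93 and then 9.67, 9.03 and 9.25). It did not hold for the lists of plasma cells, neutrophils, macrophages, erythroid cells and mitosis. Single B cell markers departed from the mean of their list. Cd79a read 3346 on MM replicate 6 against 2202 to 2649 on replicates 1 to 3, and Cd79b 1757 against 1249 to 2163. The part of these cells in the result was not tested.

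Of 13 measured partners of the proteasome, limma called 0 in each comparison, where it called 3.19% to 9.59% of all probe sets. Pomp, the maturation factor that joins the partly built cores, read 1390, 1410, 1224, 794, 614 and 822 in MM and 651 to 959 in nontransgenic B cells, with a log2 fold change of 0.34 (adjusted p = 0.318). Ngly1, which processes NRF1, had 0.56 between the B cell groups, higher with the transgene (adjusted p = 0.0196), and -0.59 in MM against Eμ-xbp-1s B cells (0.0452). Nfe2l1, which encodes NRF1, the factor that raises proteasome genes when the proteasome is inhibited, ran from 297 to 1550 in MM against 523 to 890 in nontransgenic B cells, with a log2 fold change of -0.05 (adjusted p = 0.934). At an unadjusted p under 0.05, 1 partner was higher in each of the 3 comparisons and 1, Ngly1, was lower in MM against Eμ-xbp-1s B cells. Of all probe sets, 20.1% passed that threshold between the B cell groups. In MM, 26.7% did against Eμ-xbp-1s and 35.3% against nontransgenic B cells.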

How the data were processed

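RNA of 16 samples was hybridised to Affymetrix mouse genome arrays. The deposited intensity values are linear, and the authors computed them in dChip as model-based expression of perfect match minus mismatch signal after normalization to a baseline array. Intensities under 50 were set to 50, a probe set was kept where over 20% of the compared arrays exceeded 100, and log2 values of each pair of groups were tested in limma 3.58.1 (R 4.3.3) with Benjamini-Hochberg adjustment at 0.01, in place of the SAM test of the methods. The presence calls of the methods were not used. The 64 control probe sets were left out, and 34958 probe sets have 1 symbol. Subunit exchange was tested by exact permutation and adjusted over 9 tests. The members and gene lists were chosen with earlier results of these data known. Genes named were the catalytic pairs, Psme1, members past the test, and the member of highest and of lowest signed log2 fold change of each role, and others with the lowest p, chosen after their values were seen. Same-numbered B cell arrays of the 2 groups deviated together (r = 0.171 to 0.519). Only nontransgenic replicates 1 and 5 had their best match in the array of the same number, and the labels give no pairing. The numbers were taken as pairs only in the sign-flip test and the replicate block. The number of arrays limits the precision. Limma was tested on simulated data. Sequences are from RefSeq (GRCm38.p6). Some listed genes were not analysed here.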

Additional observations from a re-analysis of the deposited data

Results flagged for a closer look

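Of 141 combinations of a tested member and a group, 10 had a single array far from the others by Dixon's test on log2 intensities, which chance alone flags in about 1 of 20 groups. All 10 were the value of MM replicate 6, and each was the lowest of its group. They are 21.3% of the 47 members in MM, where 6.99% of all probe sets had any array far from the others. For 3.85% of all probe sets it was the lowest array, and for 2.73% it was replicate 6 as the lowest. In nontransgenic and Eμ-xbp-1s B cells 0 of the 47 were flagged, against 4.0% and 6.05% of all probe sets. The 10 values come from 1 array and are not independent of each other. Replicate 6 read 417 for Psmc2 against 919 to 1266 on the other MM arrays, 742 for Psmd11 against 1386 to 1574, and 390 for Psmd12 against 610 to 712. For Psmd2 it was 202 against 588 to 1109, for Psmd4 429 against 855 to 1144, for Psmd6 656 against 869 to 996 and for Psmd8 335 against 528 to 635. The assembly chaperones Psmd9 and Psmd10 read 88.3 against 206 to 285 and 103 against 160 to 188, and the PA28γ gene Psme3 read 134 against 383 to 715. On the same array the actin control had a 3′ to 5′ ratio of 1.59, the highest of the MM arrays (1.07 to 1.42 on the others). The Gapdh ratio was 1.395 on it and highest on MM replicate 5, at 1.499. The part of RNA integrity in these values was not tested.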

How the results depend on the processing

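Members called, 0 in each comparison, moved under a few settings. With array weights 4 were called in MM against Eμ-xbp-1s and 15 in MM against nontransgenic B cells. In the latter, quantile normalization gave 1 and an adjusted p under 0.05 gave 2. Leaving out 1 array gave 0 to 1 against Eμ-xbp-1s and 0 to 2 against nontransgenic B cells, the highest without MM replicate 6. The replicate block gave 0 members in every comparison and changed no call. A floor of 16 or of 100, a pseudocount of 50, all probe sets unfiltered, median scaling, trend with robust variance, 1 fit of all groups and the mean of probe sets also gave 0.

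Directions of single genes that did not pass turned. Between the B cell groups array weights gave 0.41, 0.47, 0.19, 0.47, 0.080 and 0.44 for Psmb5 to Psmb10 in order. Without Eμ-xbp-1s B cell replicates 3 and 4, left out after their control ratios were seen, Psmb5, Psmb6, Psmb7, Psmb8 and Psmb10 were at 0.21, 0.12, 0.072, 0.023 and 0.12. The mean of probe sets gave 0.0036 for Psmb8. Leaving out 1 array gave -0.20 to 0.066 for Psmb5, -0.34 to 0.020 for Psmb6, -0.28 to 0.11 for Psmb10 and -0.12 to 0.24 for Psme1. In MM against Eμ-xbp-1s B cells Psmb5 went to -0.040 without replicates 3 and 4 of the latter, Psmb8 and Psmb9 to 0.31 and 0.34 without MM replicates 4 and 5, and Psmb9 to 0.38 with array weights. Against nontransgenic B cells array weights gave 0.41, 0.47, 0.16 and 0.19 for Psmb8, Psmb9, Psmb10 and Psme1, and without MM replicates 4 and 5 Psmb8 and Psmb9 were at 0.065 and 0.060. The cause was not tested.

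For the exchange no setting passed. Psmb8 minus Psmb5 went to 0.039 with the mean of probe sets between the B cell groups and to 0.015 in MM against Eμ-xbp-1s B cells without MM replicates 4 and 5. The sign-flip test over 5 pairs cannot fall below 0.0625. Leaving out MM replicates 1 to 3 was planned and not run, because those are the arrays with the high inducible genes and the choice would follow the outcome.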
